A study of Mustela putorius furo with 8 samples.

Results

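The change from day 2 to day 5 of polarization was followed in cultures of CFTR-knockout (CF) ferret pancreatic ductal epithelium (PDE). All retained cells of the CF day 2 library (4499) and of the CF day 5 library (2750) were taken, 7249 of the 32945 retained cells of the series. The series holds 8 single-cell RNA libraries made with the 10x Genomics droplet method, 1 for each of the 2 genotypes, wild-type (WT) and CF, at day 2, 5, 7 and 9 of culture at an air-liquid interface (ALI). Cells were isolated from the pancreas of ferrets 1 to 3 days old, passaged 10 times, and seeded on 804G-coated transwell inserts, and dead cells were removed before capture. The CF libraries are labelled with the genotype CFTR KO/KO and the titles give the day, whereas the culture protocol in the labels mentions a longer time, 3 weeks, at the interface. Each library was a pool of 3 donors, whose cultures differed in PDX1 level between genotypes, and cells were not assigned to a donor here. With 1 library a side no test was possible, and day, library and culture cannot be told apart.

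Pancreatic ductal cells line the tubes that carry digestive enzymes to the gut and secrete the fluid and bicarbonate that flush them. CFTR is the apical anion channel on which this secretion depends. When ductal cells are moved from plastic to a permeable support and the apical medium is removed, an epithelium of this kind is known to leave the cell cycle, seal its junctions and set up apical and basal faces.

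UMIs, the molecule counts of each gene, were summed over the cells of a library and scaled to counts per 1e6 UMIs (CPM). The CF day 2 library held 102328589 UMIs (median 17833 a cell) and the CF day 5 library 71472170 (median 22793.5 a cell), so that sums over cells were precise while the depth per cell differed. The median share of mitochondrial UMIs was 7.04% at day 2 and 6.76% at day 5, and 9 retained cells of each library carried a barcode that the other library also held. CFTR, the targeted gene, had 256 UMIs at day 2 and 621 at day 5, or 2.50 and 8.69 CPM. These tags come from the 3' end of the transcript, which may lie outside the altered part of the gene, so they do not check the genotype. KRT19, a keratin of simple ducts, stood at 5113 and 4539 CPM, and EPCAM, an epithelial adhesion molecule, at 98.8 and 148 CPM. The hormone genes INS, GCG and PPY had no UMI in either library. Over 12 endocrine markers the sum was 0.420 and 0.350 CPM, and over 8 endothelial markers it was 0.107 and 0.126 CPM. Immune markers (13 genes) summed to 33.3 and 30.5 CPM, mostly CD68 (20.9 and 7.61 CPM) and CD74 (2.77 and 10.8 CPM), with PTPRC, the common leukocyte antigen, at 0.00977 and 0 CPM. Markers of acinar cells (9 genes) summed to 19.3 and 31.1 CPM, nearly all of it CLPS, and those of ciliated cells (10 genes) to 181 and 252 CPM, nearly all of it TUBB4B.

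Most genes stayed close to their day 2 level. A gene was taken as changed when the log2 of CPM plus 1 moved by at least 1 (2-fold), among 7749 genes that reached 10 CPM in at least 1 of the 2 libraries. This scale understates changes near 1 CPM. A gene under 10 CPM at 1 day was tested only through its level at the other day. Counts and medians of lists with such genes therefore follow in part from this floor. By this rule 131 genes (1.69%) rose and 47 (0.607%) fell, and 37 of the rises and 4 of the falls were at least 4-fold. Over all genes tested the median change was 0.08, and 90% of the changes lay between -0.40 and 0.61. Rises made up 73.6% of the changed genes on this scale, but 54.5% with edgeR's TMM factors, which placed 102 genes higher and 85 lower and moved the median by -0.16. All intervals below are 95% intervals that cover counting error only, not variation between cultures or animals. In sums over cells, fewer cells that express a gene and less RNA in each of them cannot be told apart.

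**Figure D1:**
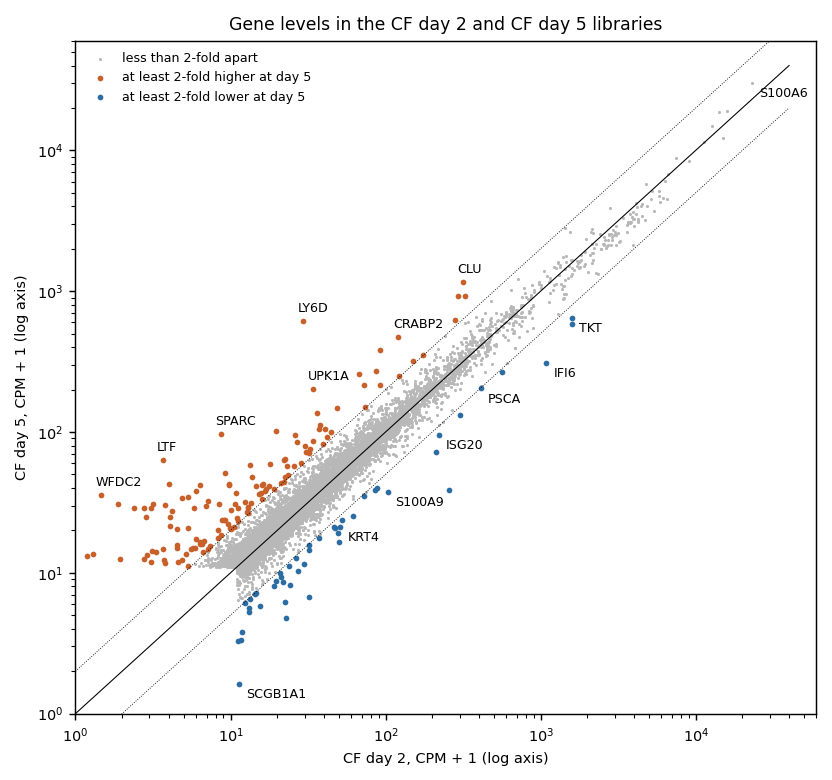
Level of each of the 7749 tested genes at CF day 2 (x axis) and CF day 5 (y axis), in CPM plus 1 on log axes; the solid line marks equal levels and the dotted lines a 2-fold difference. Most points lie between the dotted lines, with 131 genes above and 47 below them.

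Of the genes of surface and umbrella-type epithelial cells, 4 rose. LY6D, a GPI-anchored surface protein of stratified epithelia, stood at 28.2 CPM at day 2 and 612 CPM at day 5, a 21.7-fold rise (20.9 to 22.6). Its level at day 7 was 437 CPM and at day 9 it was 578 CPM, so neither later library was above day 5. Uroplakins form the rigid plaques of the urothelial apical membrane, and 2 of them rose. UPK1A went from 32.9 to 202 CPM (6.12-fold, 5.90 to 6.36) and UPK3A from 8.19 to 50.3 CPM (6.15-fold, 5.70 to 6.64). LYPD2, a relative of LY6D, rose from 85.8 to 269 CPM. PSCA, another surface protein of the Ly6 family, moved the other way, from 409 to 203 CPM, as did UPK3BL2, which fell from 564 to 266 CPM (2.12-fold lower, 2.08 to 2.15). PSCA fell by 0.43 on the log2 scale, under 2-fold, when the day 5 classes were weighted to the class mix of day 2. Of 14 tested surface and cornified envelope genes, 4 rose, 1 fell (PSCA) and the median change was 0.13. UPK1B (355 and 437 CPM), UPK3B (42.0 and 48.6 CPM) and TSPAN1 (846 and 880 CPM) were under 2-fold.

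The share of cells with a UMI was also counted, which rises with the level per cell as well as with the number of expressing cells. After each cell was thinned to 3000 UMIs (4460 cells at day 2 and 2705 at day 5), 4.93% of the day 2 cells and 35.6% of the day 5 cells held a LY6D UMI. Without thinning the shares were 16.1% and 60.1%. Across the clusters that the authors had deposited, the thinned share ran from 1.87% to 13.5% at day 2 and from 2.77% to 76.0% at day 5. UPK3A was found in 2.00% and 10.8% of thinned cells, and in the lowest cluster of each day in 0% and 2.08%.

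**Figure D2:**
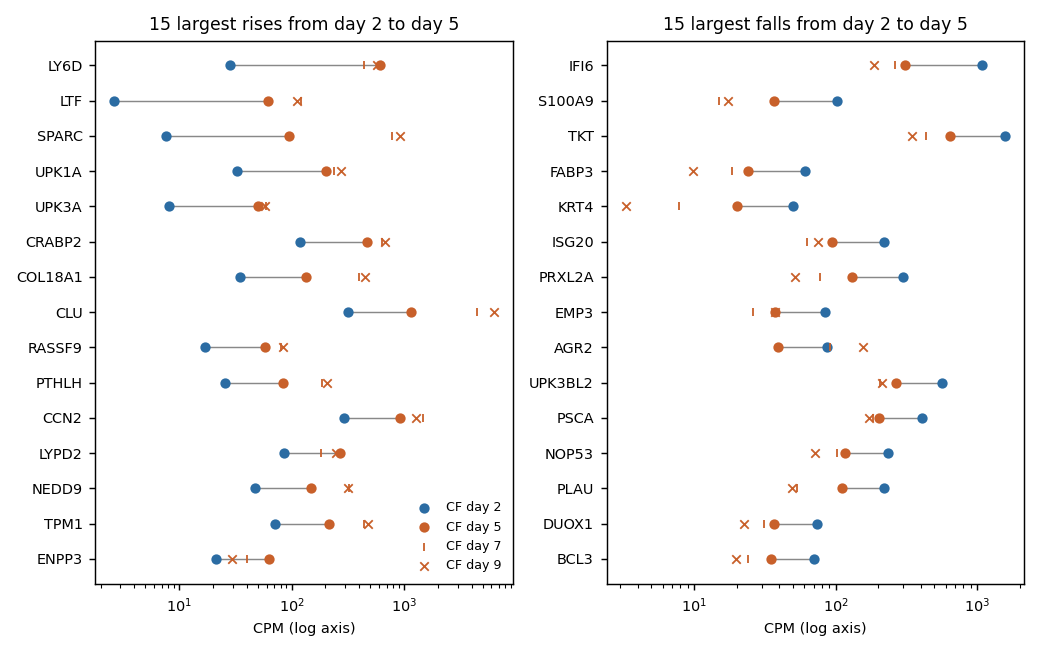
CPM (log axis) of the 15 genes with the largest rise and the 15 with the largest fall from CF day 2 to CF day 5, among genes with a symbol and at least 50 CPM in 1 of these libraries; filled points are day 2 and day 5, and the tick and cross are CF day 7 and day 9. NOP53, PLAU, DUOX1 and BCL3 are just under a 2-fold fall on the log2(CPM + 1) scale. SPARC and CLU lie further up at day 7 (787 and 4450 CPM) than at day 5, whereas UPK3A (59.7 CPM) is close to its day 5 level.

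Among the keratins 1 changed. KRT4, a keratin of suprabasal mucosal cells, fell from 50 to 20.2 CPM (2.48-fold lower, 2.34 to 2.63). KRT5, the keratin of basal cells, was at 887 and 548 CPM and KRT15 at 17.4 and 10.1 CPM, neither a 2-fold change. The KRT4 change was -0.67, under 2-fold, with the class mix of day 2. In the list of 8 basal and squamous keratins and basal cell genes, 1 fell (KRT4), none rose and the median was -0.51. The simple keratins of ducts (4 genes) had a median of -0.10, with KRT7 at 2133 and 2752 CPM and KRT8 at 1141 and 971 CPM.

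Mucins, trefoil factors and secreted defence proteins moved in both directions. WFDC2, a secreted protease inhibitor, had 48 UMIs at day 2 and 2484 at day 5, or 0.469 and 34.8 CPM (74.1-fold, 55.7 to 101). LTF, the iron-binding protein lactoferrin, rose from 2.65 to 61.8 CPM (23.3-fold, 20.6 to 26.5). SPINK1, the pancreatic secretory trypsin inhibitor, rose from 0.889 to 29.8 CPM, and PI3, the elastase inhibitor elafin, from 5.91 to 28.8 CPM. On the other side SCGB1A1, the secretoglobin of airway club cells, dropped from 10.4 to 0.630 CPM (16.5-fold lower, 12.2 to 22.8). CXCL14, an epithelial chemokine, fell from 21.3 to 5.25 CPM and S100A9, a calprotectin subunit, from 102 to 36.8 CPM. Of 10 tested defence proteins 4 rose and 4 fell (RETNLB was the other fall, 25.5 to 11.7 CPM), with a median of 0.56. WFDC2, LTF, SPINK1 and PI3 were under 10 CPM at day 2 and were tested only through day 5. SCGB1A1 and CXCL14 were under it at day 5 and were tested only through day 2. The RETNLB change was -0.65 in clusters that kept their class name.

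Among the gel-forming mucins, MUC5B rose from 0.928 to 11.5 CPM and MUC5AC from 31.4 to 74.2 CPM. The MUC5AC change was 0.57 in cells with up to 10% mitochondrial UMIs and 0.65 with the class mix of day 2. The trefoil factors, small peptides secreted with mucins, rose as well, TFF2 from 1.77 to 27.9 CPM and TFF3 from 1.84 to 23.8 CPM. MUC5B, TFF2 and TFF3 were under 10 CPM at day 2 and were tested only through day 5. AGR2, the disulfide isomerase that helps mucins to fold, fell from 86.6 to 39.1 CPM. These were the changed members among 9 tested, whose median was 0.16, and the membrane mucins MUC1 (843 and 694 CPM) and MUC16 (110 and 124 CPM) were under 2-fold. The largest share of UMIs in 1 cluster differed between these genes, and for TFF3 it was 19.7% at day 2 and 17.7% at day 5. At day 2, cluster 4 (613 cells) carried 43.3% of the MUC5AC UMIs, 53.5% of those of LTF and 55.4% of those of SCGB1A1. At day 5, cluster 17 (254 cells) carried 43.4% of the MUC5AC UMIs and 33.5% of those of LTF, and cluster 25 (169 cells) 58.2% of those of TFF2. SPDEF, a transcription factor of goblet cells, was at 0.254 and 4 CPM and did not reach the level needed for a test.

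The dual oxidases, which make hydrogen peroxide at the apical surface, and their maturation factors were lower at day 5. None reached 2-fold on the log2(CPM + 1) scale, where DUOX1 was at -0.990, but its lowest change over the settings was -1.16. DUOX1 was at 73.4 and 36.5 CPM and DUOXA2 at 36.8 and 17.9 CPM, and all 4 tested members had a change below 0, with a median of -0.80.

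Of 15 tested contractile and mesenchymal genes 7 rose, most of them from low levels. TAGLN, an actin-binding protein of smooth muscle, went from 1.40 to 27.8 CPM, MYL9, a myosin light chain, from 2.07 to 27.7 CPM, and CALD1, caldesmon, from 3.06 to 23.7 CPM. TPM1, a tropomyosin, rose from 71.3 to 214 CPM and VIM, vimentin, from 14.8 to 35.7 CPM. S100A4 and the homeobox gene PRRX2 were the other rises, none fell and the median of the list was 0.48. TAGLN, MYL9, CALD1, S100A4 and PRRX2 were under 10 CPM at day 2 and were tested only through day 5. With the class mix of day 2 the VIM change was 0.41, under 2-fold. None of the transcription factors of epithelial-mesenchymal transition listed with them reached 2-fold. SNAI2 was at 29.9 and 42.1 CPM and TWIST1 at 29.1 and 33.6 CPM, while ZEB1, ZEB2 and SNAI1 stayed under 1 CPM. ACTA2, smooth muscle actin, was at 1.20 and 0.350 CPM.

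The matricellular protein SPARC, which binds collagen, stood at 7.64 CPM at day 2 and 95.5 CPM at day 5 (12.5-fold, 11.6 to 13.5). At day 2 most of its UMIs came from 5 cells. These cells, cluster 11 of the deposited clusters, held 584 of the 782 SPARC UMIs, 451 of the 459 UMIs of the fibrillar collagen COL1A1, and 51 of the 54 UMIs of DCN, decorin. They also held 118 of the 143 TAGLN UMIs and 295 of the 331 FN1 UMIs. At day 5 only 2 cells lay in that cluster, COL1A1 had 6 UMIs in the whole library, and DCN had none. With cluster 11 left out at both days, an alternative added after the data had been seen, SPARC was at 1.94 and 94.5 CPM (a change of 5.02 in place of 3.48), FN1 at 0.352 and 5.67 CPM and TAGLN at 0.245 and 25.4 CPM. The fibroblast and stellate markers (12 genes) summed to 7.47 and 7.46 CPM, of which 5.23 and 4.62 CPM was NOTCH3.

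SPP1, the secreted phosphoprotein osteopontin, rose from 2.98 to 41.7 CPM (14-fold, 12.4 to 15.8), and then stood at 1082 CPM at day 7 and 1940 CPM at day 9. CCN2 rose from 290 to 919 CPM and CCN1 from 121 to 248 CPM. With SPARC and SPP1 itself, which the list includes, they made 4 rises among 6 tested genes of the SPP1 partner list, whose median was 1.35. SPP1 and SPARC were under 10 CPM at day 2 and were tested only through day 5, so this count and median follow in part from the floor. The SPP1 receptors CD44 (300 and 201 CPM) and ITGB3 (33.3 and 22.9 CPM), also on that list, were lower at day 5 but under 2-fold. COL18A1, a basement membrane collagen, rose from 35 to 134 CPM and CLU, the chaperone clusterin, from 315 to 1165 CPM. With the class mix of day 2 the log2 changes were smaller, at 2.28 in place of 3.42 for SPP1, 2.14 in place of 3.48 for SPARC, 2.22 in place of 3.59 for TAGLN, 1.39 in place of 2.61 for CALD1, 1.14 in place of 1.89 for CLU and 1.07 in place of 1.91 for COL18A1. At day 5 a group of 436 cells, cluster 5, held 76.4% of the TAGLN UMIs, 75.6% of the MYL9 UMIs and 47.8% of the CLU UMIs. The same cluster held 62.4% of the SPARC UMIs, and cluster 16 (62 cells), where its level was highest (456 CPM), 8.13%. A SPARC UMI was found in 0.538% of thinned cells at day 2 and 15.8% at day 5, against 0% and 0.791% in the lowest cluster of each day.

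Targets of YAP and TEAD, the transcriptional arm of the Hippo pathway, had changes of 1 sign. All 13 tested members had a change above 0, and 4 of them reached 2-fold, namely CCN2, CCN1, PTPN14 (9.08 to 19.4 CPM) and F3, tissue factor (174 to 353 CPM). Of these 4 only CCN2 stayed 2-fold higher with TMM factors, where CCN1 was at 0.87, PTPN14 at 0.86 and F3 at 0.85 on the log2 scale. The median of the list was 0.86, against 0.08 over all genes tested. The share of thinned cells with a CCN2 UMI went from 44.4% to 74.6%, and in the lowest cluster it was 30.4% and 49.0%. CCN1 and CCN2 belong to both lists. WWTR1, which encodes the cofactor TAZ, was at 88.6 and 141 CPM, and YAP1 at 52.6 and 60.1 CPM.

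Ligands of other pathways rose in a few cases. WNT5A, a ligand of the non-canonical pathway, went from 12 to 28.4 CPM and WNT5B from 8.96 to 19.8 CPM, the 2 changed members of 12 tested WNT genes (median 0.55). The WNT5B change was 0.91 with TMM factors and 0.18 with the class mix of day 2, and the WNT5A change was 0.80 in cells with up to 10% mitochondrial UMIs. LEF1, a WNT target, was at 0.850 and 2.11 CPM. Among 18 TGF-beta ligands, receptors and targets 1 rose, none fell and the median was 0.38. PMEPA1, a feedback inhibitor of the pathway, was at 215 and 388 CPM and SMAD7, an inhibitory SMAD, at 40.4 and 71.7 CPM, both under 2-fold. None of 13 BMP response genes reached 2-fold (median 0.46), with ID1 at 1147 and 1172 CPM and ID4 at 127 and 232 CPM. No Notch gene reached it either (10 tested, median 0.12), although HES1, the main Notch effector, was at 475 and 856 CPM. In the PI3K and AKT list (20 tested, median 0.11), GAS6, the ligand of the AXL receptor, was the 1 rise, from 8.82 to 40.8 CPM (a log2 change of 2.09, or 1.44 with the class mix of day 2), and PIK3R1, the regulatory subunit of PI3K, was at 64.2 and 97.9 CPM. IGFBP3, a binding protein of insulin-like growth factors, rose from 326 to 923 CPM. CRABP2, which carries retinoic acid to the nucleus, rose from 120 to 469 CPM (3.92-fold, 3.84 to 4), the 1 changed gene of 9 in retinoid handling. Also higher were PTHLH, the parathyroid hormone-like hormone (25.8 to 83.7 CPM), and NEDD9, a scaffold of integrin signalling (47.6 to 148 CPM). With the class mix of day 2 the changes of PTHLH (0.82), NEDD9 (0.88) and IGFBP3 (0.91) were under 2-fold.

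Nearly all tested genes of DNA replication and mitosis had lower values at day 5. All 16 tested genes of S phase and DNA replication had a change below 0, 6 of them by 2-fold or more, and the median was -0.79. RRM2, a subunit of ribonucleotide reductase, fell from 45.6 to 20.1 CPM and MCM3, of the replicative helicase, from 20.1 to 8.31 CPM. The other 4 were MCM4, MCM5, CHAF1A and GINS2. In G2/M and mitosis UBE2C fell from 30.9 to 14.7 CPM, MKI67 was at 12.1 and 6.06 CPM, and 12 of 13 tested genes had a change below 0 (median -0.67). At day 5, 81.1% of the MKI67 UMIs lay in cells outside the clusters of at least 50 cells. The medians became -0.18 for S phase and 0.041 for G2/M when the day 5 classes were weighted to the class mix of day 2, and none of these 7 falls then reached 2-fold. This weighting raises the share of the Prolif_acinar class, which is cluster 24 alone. It also raises that of the ductal class, which holds cluster 10, led by replication genes. It thus puts cycling cells back by construction and is no check on these falls. Cluster 24, whose leading genes are mitotic, held 154 cells at day 2 and 40 at day 5, or 3.42% (2.91 to 4) and 1.45% (1.04 to 1.98) of the library. None of 10 D cyclins, CDK inhibitors and MYC genes reached 2-fold, with CCND1 at 75.1 and 142 CPM.

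Of the interferon-stimulated genes, 3 of 18 tested fell and none rose, with a median of 0.01. IFI6, a mitochondrial interferon-induced protein, was the largest fall among abundant genes with a symbol, from 1082 to 310 CPM (3.49-fold lower, 3.44 to 3.54). ISG20, an exonuclease, fell from 219 to 94.6 CPM and IFIT3 from 14.6 to 4.80 CPM. Others were under 2-fold or pointed the opposite way, such as MX2 (25.0 and 45.4 CPM) and IFIT5 (13.6 and 26.2 CPM). At day 2 cluster 4 held 39.8% of the IFI6 UMIs and 60.8% of those of IFIT3. In every cluster of at least 50 cells IFI6 was lower at day 5 (176 to 461 CPM in 10 clusters) than at day 2 (503 to 2970 CPM in 12 clusters).

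Of 26 tested AP-1 and immediate early genes 2 fell, none rose and the median was -0.05. NR4A1, an orphan nuclear receptor, went from 10.2 to 2.28 CPM and FOSL1, an AP-1 subunit, from 49.3 to 15.4 CPM. JUN was at 405 and 573 CPM. In the NF-kB list (11 tested, median -0.09) LTB, lymphotoxin beta, rose from 10.1 to 27.7 CPM, and 55.2% of its day 5 UMIs lay in cluster 5. The change of LTB was 0.86 with the class mix of day 2. No member of the heat shock and dissociation list (11 tested, median -0.09) reached 2-fold. PLAT, tissue plasminogen activator, fell from 48.1 to 18.1 CPM, the 1 changed gene of 8 matrix metalloproteinases, TIMPs and plasminogen activators.

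In metabolism the pentose phosphate enzyme TKT, transketolase, fell from 1588 to 644 CPM (2.47-fold lower, 2.44 to 2.49). Thinned cells with a TKT UMI made up 96.1% at day 2 and 74.7% at day 5. It was the 1 fall among 25 NRF2 and glutathione genes, of which 18 had a change below 0 (median -0.32), with GPX2, a glutathione peroxidase, at 411 and 212 CPM and HMOX1, heme oxygenase, at 81.3 and 51.8 CPM. EGLN3, a prolyl hydroxylase of the hypoxia response, fell from 26.1 to 9.33 CPM, the 1 change among 23 genes of glycolysis and hypoxia (median -0.26). GAPDH was at 1407 and 889 CPM and ENO1, enolase, at 684 and 395 CPM. FABP3, a fatty acid binding protein, fell from 60.8 to 24.1 CPM. None of 34 nuclear genes of the respiratory chain (median 0.06), 29 of ER folding and amino acid stress (0.09) or 24 of cholesterol and fatty acid synthesis (0.19) reached 2-fold. The list medians between 0 and 0.16 given here, those for mucins and insulin-like growth factor binding proteins included, were below 0 under TMM scaling.

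Over all genes tested 1.69% rose and 0.607% fell by 2-fold. At these shares lists of 12 to 30 genes would hold close to none. The junction and adhesion lists, with none, therefore do not stand apart from all genes. In the list of duct identity and anion secretion 1 of 12 tested genes changed, SCNN1G, the gamma subunit of the epithelial sodium channel, which rose from 2.69 to 13.7 CPM (5.11-fold, 4.47 to 5.87), while the alpha subunit SCNN1A was at 112 and 97.5 CPM. ANO1, a calcium-activated chloride channel, was at 70.6 and 82.1 CPM, and SLC12A2, the basolateral chloride importer, at 114 and 148 CPM. CFTR did not reach the level needed for a test, and its ratio was 3.47 (3.00 to 4.03). No tight junction or polarity gene changed (30 tested, 21 above 0, median 0.15), and TJP1 was at 66.2 and 93.8 CPM and CLDN4 at 448 and 353 CPM. The same was true of 15 adherens junction and desmosome genes (median 0.08) and 14 laminins and integrins (median 0.19), of which ITGB6 was at 78.9 and 151 CPM. Of 13 pancreatic and foregut transcription factors none changed (median 0.04). FOXA2 was at 26.1 and 13.4 CPM and FOXA1 at 100 and 158 CPM, PAX6 at 84.0 and 68.5 CPM. PDX1 (3.37 and 4.70 CPM) and SOX9 (6 and 5.79 CPM) were too low for the test.

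**Figure D3:**
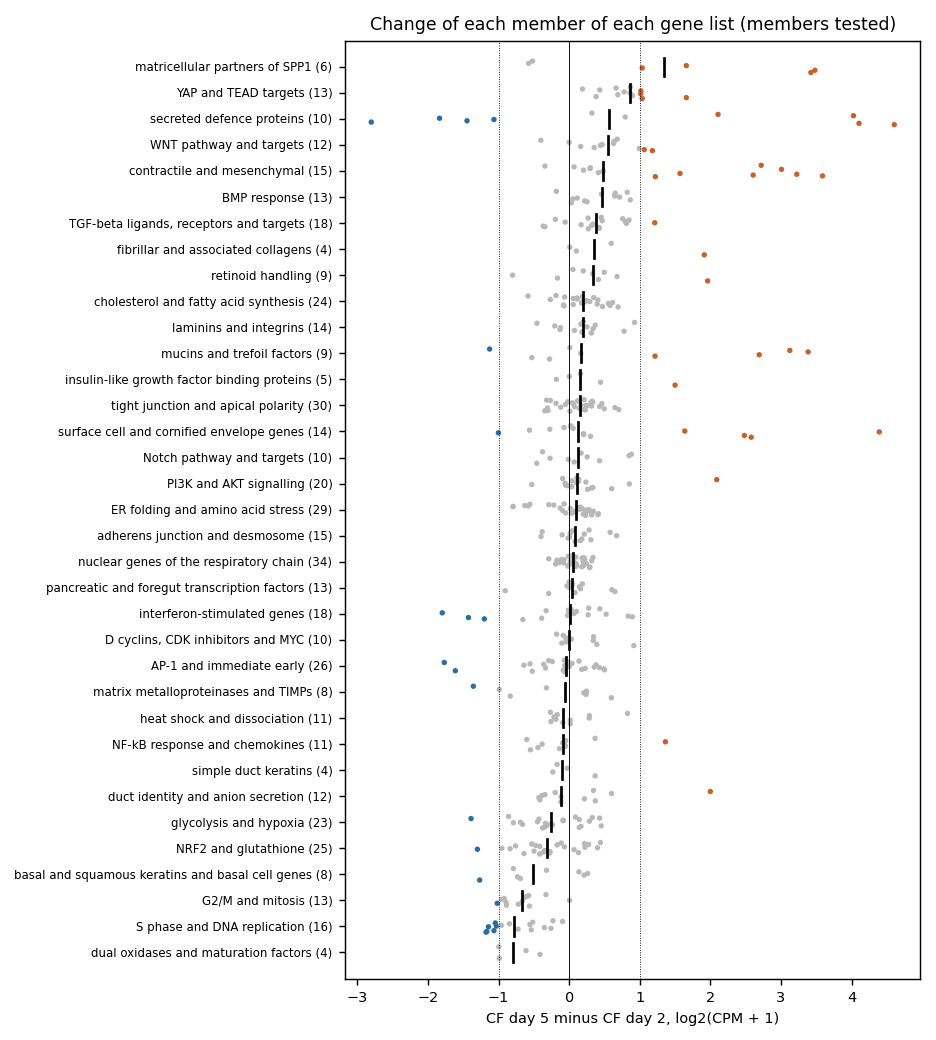
Change of each tested member of each gene list from CF day 2 to CF day 5, on the log2(CPM + 1) scale; points past the dotted lines are at least 2-fold changed, the black bar is the list's median and the number after the name is how many members were tested. The SPP1 partner list, which includes SPP1 itself (median 1.35), and YAP and TEAD targets (0.86) lie highest, and the S phase list (-0.79) and dual oxidases (-0.80) lowest. In the SPP1 partner list, SPP1 and SPARC were tested only through day 5, so its place follows in part from the floor.

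Changes in CPM were also ranked by their absolute size. Among genes that are neither mitochondrial nor ribosomal, S100A6, a calcium-binding protein, gained most, from 23079 to 30290 CPM, followed by ECRG4, a secreted peptide precursor (1551 to 2622 CPM). FTL, the ferritin light chain, lost most (6520 to 4509 CPM), while the heavy chain FTH1 was at 4788 and 5790 CPM. GPX1 was at 2354 and 1316 CPM and PRDX1 at 2268 and 1339 CPM. Ribosomal protein genes (79) made up 207933 CPM at day 2 and 172655 CPM at day 5. Of 76 tested, 69 had a change below 0, none reached 2-fold, and the median was -0.26. The 66 ribosomal RNA genes of the annotation rose from 271 to 1099 CPM in sum, and 10 of the 131 rising genes were among them. Their part in the other changes was not tested.

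Most deposited clusters held cells of mainly 1 of the 2 days. Counting only day 2 and day 5 cells, 9 of the 30 CF clusters were more than 90% day 2 cells and held 86.5% of that library, and 8 were more than 90% day 5 cells and held 85.0% of that library, all with at least 50 cells in the library. All 8 of the latter also held day 7 or day 9 cells, which are not counted in these shares. Levels were therefore compared over the 12 clusters with at least 50 cells at day 2 (4443 cells) and the 10 at day 5 (2486 cells). In 38 genes (0.490%) every day 5 cluster was above every day 2 cluster, and in 9 (0.116%) every one was below. Because clusters were formed from the expression of these same cells, these counts are a description. Only 9 of the 38 were also 2-fold higher in sum, 6 of them with a symbol. They were WFDC2, TFF3, MDK (a heparin-binding growth factor, 6.16 to 31.5 CPM), RASL11B, ZNF704 and RAB9A. MDK ran from 4.04 to 8.89 CPM across day 2 clusters and from 13.3 to 96.2 CPM across day 5 clusters. IFI6 was the 1 gene both 2-fold lower and without overlap, although BCL3, a cofactor of NF-kB, came close (70.8 and 35.2 CPM, with clusters at 50.8 to 105 and 23.0 to 46.0 CPM), and the glycolytic enzyme PKM did not overlap either (486 and 300 CPM).

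**Figure D4:**
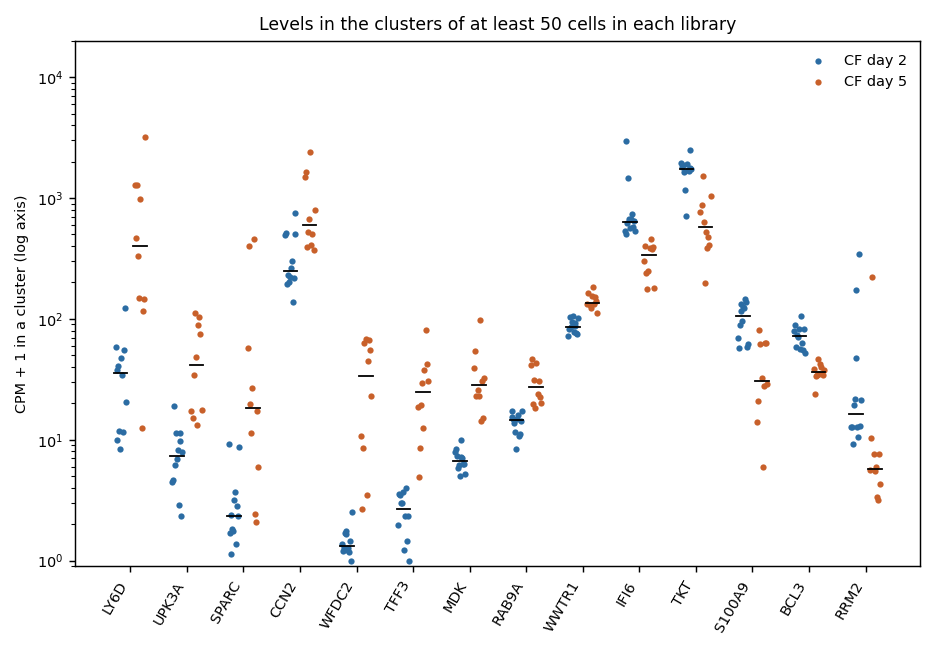
Level of 14 genes in CPM plus 1 (log axis), 1 point for each deposited cluster with at least 50 cells in the CF day 2 library (12 clusters) or the CF day 5 library (10), the bar being the median cluster. IFI6, WFDC2, TFF3, MDK, RAB9A, WWTR1 and BCL3 do not overlap between days, while LY6D, SPARC and TKT spread widely within a day.

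Cells of both days were found together in cluster 10 (347 cells at day 2 and 53 at day 5, led by replication genes) and cluster 26 (52 and 96 cells, led by LY6D). LY6D was at 46.7 and 1286 CPM within cluster 10 and at 122 and 3209 CPM within cluster 26. IFI6 was at 567 and 237 CPM in cluster 10 and at 642 and 181 CPM in cluster 26. CRABP2 was likewise higher at day 5 in both, at 115 and 402 CPM and at 267 and 737 CPM. TKT differed less in cluster 10 (1900 and 1528 CPM) than in cluster 26 (2505 and 1034 CPM). SPP1, in contrast, stayed at 3.85 and 2.52 CPM in cluster 10 and at 2.66 and 2.50 CPM in cluster 26, without the rise of the library sum.

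By the class names of the deposited table, 57.6% of the day 2 cells and 19.3% of the day 5 cells were ductal, 25.1% and 59.7% centroacinar, 13.8% and 19.6% centroacinar progenitor, and the rest Prolif_acinar. Mostly different clusters held each class at the 2 days, except that cluster 24 made up Prolif_acinar at both and that the ductal clusters 10 and 26 held cells of both, and 8 of the 30 clusters had leading genes or depths that went against their name, so these shares are given side by side only. Of the 22 clusters that kept their name only 7 had a marker of their class among their leading genes. Ductal cells of these 22 clusters made up 39.9% of all day 2 cells, and centroacinar cells 21.3%. Centroacinar cells of these clusters made up 57.3% of all day 5 cells. Cells of the other 8 clusters stayed in the totals, so these are not shares of the kept cells. The study named clusters by correlation to published single-cell references and described them by marker genes higher in these libraries, some cited from earlier studies. These marker lists gave a median change of -0.26 for ductal (6 tested, none changed) and 0.52 for centroacinar genes (4, 1 rise). The medians were -0.06 for centroacinar progenitor (10, 3 rises) and -0.29 for acinar genes (7, none changed). Because the lists describe clusters of these same cells, they are not independent evidence of the names.

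The WT cultures of the same days gave the background for these changes. Between WT day 2 and WT day 5, 396 of 8076 genes (4.90%) rose and 132 (1.63%) fell, more in each direction than in CF. Of the 131 genes that rose in CF, 68 (51.9%, and 17.2% of the WT rises) rose in WT, where 100 of the 131 were tested, and of the 47 that fell 21 (44.7%, and 15.9% of the WT falls) fell in WT. LY6D rose from 0.986 to 39.2 CPM in WT, a 39.8-fold rise (33.0 to 48.4) against 21.7-fold in CF, or 4.34 and 4.39 on the log2(CPM + 1) scale. Of the 15 contractile and mesenchymal genes tested in CF, 10 rose in WT (median 1.54) and 7 in CF (median 0.48). CALD1 rose by 7.43 in WT and 2.61 in CF and TAGLN by 7.74 and 3.59, whereas CCN2 rose by 1.38 and 1.66. FN1, fibronectin, rose by 7.89 in WT, and it was at 3.23 and 5.99 CPM in CF. Opposite directions, of 2-fold or more on both sides, occurred in 6 genes. Of the 100 CF rises tested in WT 2 fell there, beside 1.63% of all genes tested in WT. Of the 40 CF falls tested in WT 4 rose there, beside 4.90% of all. The small number of opposite changes is thus no sign that the genotypes moved together.

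The 2 WT days differed in their make-up. Clusters with under 10 CPM of SOX2, a transcription factor, were 12 of the 41 WT clusters, a limit chosen once their levels were known. They held 14.3% (13.5 to 15.2) of WT day 2 cells and 33.8% (32.5 to 35.1) of WT day 5 cells. Within these WT cells 98 genes (1.25%) rose and 53 (0.678%) fell. There TAGLN changed by 1.62 (3.59 in CF), CALD1 by 1.83 (2.61 in CF) and SPP1 by 0.69 (3.42 in CF), each less than in CF with all cells, although the CF change of CALD1 was 1.39 with the class mix of day 2. TAGLN was at 0.477 and 3.54 CPM in these WT cells, under 10 CPM on both days. LY6D changed by 5.19 in them and by 4.39 in CF. FN1 changed by 3.45 in them, and its change in CF was 0.72 with all cells, 2.30 without cluster 11 and -0.27 with the class mix of day 2. IFI6 changed by -2.17 in them, against -1.80 in CF and -1.04 in all WT cells. The cell cycle lists had medians of 0.56 for S phase and 1.11 for G2/M in these WT cells, against -0.79 and -0.67 in CF, or -0.18 and 0.041 in CF with the class mix of day 2. That weighting puts cycling cells back by construction. Over all WT cells the medians were -1.06 for S phase, lower than in CF, and -0.106 for G2/M. In WT cells of the clusters above the SOX2 limit they were -3.02 and -3.43. In the cells above the limit TAGLN changed by 8.67, CALD1 by 8.43, FN1 by 8.74 and SPP1 by 6.65.

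**Figure D5:**
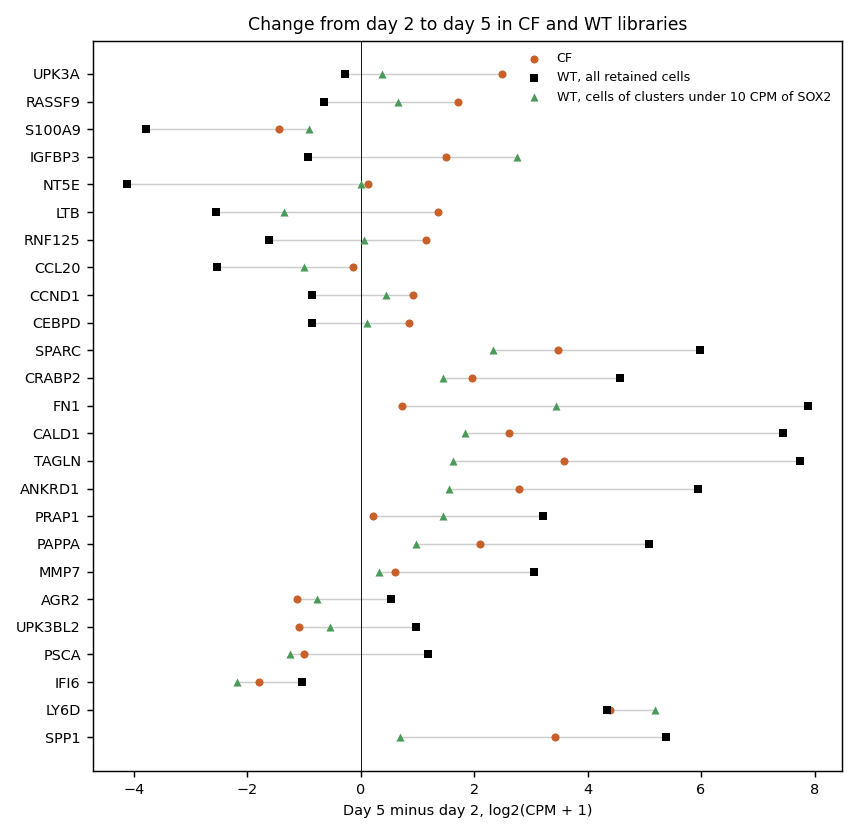
Change from day 2 to day 5, log2(CPM + 1), in CF (circles), in all retained WT cells (squares) and in WT cells of clusters under 10 CPM of SOX2 (triangles), for most of the genes in which CF and WT differed most and for AGR2, UPK3BL2, PSCA, LY6D, IFI6 and SPP1. For TAGLN and CALD1 the triangles lie below the CF value and far below the squares.

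Some of the larger changes belonged to genes known only by number, which were chosen after their values had been seen. LOC101676601 fell from 254 to 37.8 CPM and LOC101680039 from 1582 to 587 CPM. LOC123388635, a ribosomal RNA gene, rose from 91.4 to 381 CPM and LOC101679740 from 279 to 625 CPM.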

How the data were processed

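Per the labels and the study's methods, the authors aligned reads with Cell Ranger 5.0.1 to the ferret assembly ASM1176430v1.1 with an improved annotation, kept cells with at least 200 genes and up to 20% mitochondrial UMIs and genes found in at least 3 cells, and took out doublets by DoubletFinder. No further doublet calling was done here. The deposited matrices hold raw UMI counts of 27912 genes, and the deposited cell table gives each cell's sample, class, cluster and mitochondrial percent. The retained cells were those of this table. Counts were summed per library and scaled to CPM, with a pseudocount of 1 CPM and a floor of 10 CPM. Ratios have exact conditional binomial intervals, and shares of cells have exact Clopper-Pearson intervals. Named genes were the 15 largest rises and falls with a symbol and at least 50 CPM in either library, the 10 largest gains and losses in CPM, up to 6 members of each list by size of change with its defining members, genes the study follows, and the 10 genes on each side whose CF change lay farthest from the WT change, and other genes were added by name after their values had been seen. The members and lists were chosen with earlier results of these data known. A cluster lost its class name where markers of a different class outnumbered its own among its leading 10 genes or its median UMIs were under 1 in 3 of the library's. Alternatives were edgeR 4.0.16 TMM and DESeq2 1.42.0 size factors (scaling only), the floor, the pseudocount, and choices of cells. Python 3.11.15, pandas 2.3.3 and scipy 1.17.1 were used, and calls were tested on simulated data. Some genes of the lists are not reported here by name.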

Additional observations from a re-analysis of the deposited data

Results flagged for a closer look

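Among the genes named by rule, 8 changed at least 2-fold in CF from day 2 to day 5 while the WT ratio lay on the other side of 1 with its counting interval, with 1 library on each side, so the difference was not tested. The CF change minus the WT change, on the log2 scale, was 2.77 for UPK3A, 2.36 for RASSF9, 2.43 for IGFBP3, 3.91 for LTB and 2.76 for RNF125, which were higher at day 5 in CF. It was -1.66 for AGR2, -2.06 for UPK3BL2 and -2.19 for PSCA, which were lower at day 5 in CF. In the WT cells of clusters low in SOX2 the change took the CF sign for UPK3A (0.37), RASSF9 (0.65), IGFBP3 (2.75), AGR2 (-0.77), UPK3BL2 (-0.55) and PSCA (-1.26). Of these only IGFBP3 and PSCA reached 2-fold there, and UPK3A was at 7.97 and 10.6 CPM. RNF125 barely moved in those WT cells (0.06, at 7.56 and 7.93 CPM), under 10 CPM on both days. LTB took the opposite sign (-1.36, against 1.36 in CF). The part of the WT cell mix in these differences was not tested beyond this.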

How the results depend on the processing

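No paired analysis was possible because each day is 1 library, and no library could be left out. The next counts cover 86 named genes and leave out those named only as list members. Of 36 of them with a change of at least 2-fold, all 36 kept their direction under 12 settings and 23 stayed at least 2-fold under each. The 36 include CFTR, ANKRD1 and PAPPA, which were under the 10 CPM floor. For the rest of the 36, the smallest change was -0.94 for AGR2, 0.87 for CFTR, 0.91 for IGFBP3, -0.67 for KRT4, 0.86 for LTB, 0.88 for NEDD9, 0.82 for PAPPA, -0.77 for PRXL2A, -0.43 for PSCA, 0.82 for PTHLH, 0.92 for RNF125, -0.98 for S100A9 and -0.96 for UPK3BL2. Several list members also fell under 2-fold with the class mix of day 2, such as CCN1 (0.44), VIM (0.41) and RRM2 (-0.20). With the class mix of day 2 there were 89 rises and 44 falls, of which 80 and 30 were among the 131 and 47. The 131 rises became 42 with a floor of 50 CPM and 243 with no floor. The 47 falls became 85 with TMM factors, 77 with DESeq2 size factors (median shifts of -0.16 and -0.15), 30 with a pseudocount of 5 CPM and 16 with a floor of 50 CPM. Rises made up 57.7% of the changed genes with DESeq2 size factors. The defence protein median was 0.26 in cells with up to 10% mitochondrial UMIs. With the class mix of day 2, list medians were -0.18 for S phase, 0.041 for G2/M (turned in sign), 0.21 for contractile genes, 0.80 for SPP1 with its partners, 0.088 for BMP, 0.24 for WNT, -0.18 for Notch and 0.54 for YAP targets. For the S phase and G2/M lists this weighting puts cycling cells back by construction. The following were added after the data had been seen. In clusters kept under their class name the median was -0.92 for G2/M and 0.20 for centroacinar progenitor markers. Without cluster 11 there were 133 rises and 47 falls. A planned count took only clusters that kept their class name, over all cells of the library. Centroacinar cells were then 21.3% at day 2 and 57.3% at day 5, and ductal cells 39.9% at day 2. Set against the WT cells low in SOX2 in place of all WT cells, the CF change minus the WT change turned in sign to 1.15 for SPARC, 0.51 for CRABP2, 0.34 for COL18A1, 1.66 for CLU, -0.54 for S100A9, 0.60 for ISG20, 0.25 for PSCA, -1.25 for IGFBP3, 0.78 for CALD1, 1.97 for TAGLN, 1.23 for ANKRD1, 1.12 for PAPPA, 0.27 for MMP7 and 2.73 for SPP1. The cause of these shifts was not tested, and the lack of a second library for either day limits every value.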
